A study of Mus musculus with 6 samples.

Results

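Fibronectin, the fibrillins, elastin, the fibulins and their matricellular partners were followed as 10 genes (Fn1, Fbn1, Fbn2, Eln, Fbln1, Fbln2, Fbln5, Tnc, Postn and Emilin1) among the 34590 symbols of the deposited count table. They were picked by name, with earlier results of these data known. All 10 were present, all 10 passed edgeR's filter on low counts, and 17345 genes were tested in all. The study engrafted fat pads cleared of their own epithelium, on opposite sides of 1 host, with WT.EGFP+ or Adamts18-/-.EGFP+ mammary epithelium, and sequenced RNA from 3 such contralateral pairs, each from a different donor and a separate experiment by the paper's account. Adamts18 encodes a secreted metalloprotease and the mutant allele, carried by the donors in every cell, lacks exons for its catalytic site. EGFP came from a transgene driven by an actin promoter, and the methods place these strains on a C57BL/6JOlaHsd background. Both grafts of a host thus carried EGFP, and only Adamts18 was meant to differ. The stroma of the fat pad belongs to the host, which the methods describe as WT, so any loss of Adamts18 was limited to the grafted epithelium. For grafts of this kind the paper describes female hosts aged 3 weeks at surgery, and the harvest time of the sequenced pairs is not given in the sources used here. Every WT graft lay on the left and every Adamts18-/- graft on the right of gland number 4, so that genotype and body side cannot be told apart.

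Fibronectin is a secreted glycoprotein that cells pull into fibrils through integrins, and these fibrils serve as a template on which collagens and other matrix proteins are laid down. Fibrillins polymerise into microfibrils, on which elastin is deposited to form elastic fibres, and microfibrils also hold latent TGF-beta complexes. Fibulins link elastin, microfibrils, fibronectin and basement membranes, whereas tenascin-C and periostin are matricellular proteins, which modulate adhesion and assembly more than they bear load. These genes are known to be transcribed mainly by fibroblasts and other mesenchymal cells, and the question here is how their mRNA stood in glands with mutant epithelium, since fibronectin protein is a proposed substrate of Adamts18.

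The source labels name FACS-sorted GFP+ mammary epithelial cells, whereas the growth text and the paper speak of whole engrafted glands, and the markers went against a pure epithelial sort. In CPM (counts per 1000000 reads after TMM scaling), 20 epithelial markers summed to between 1413 and 2652 per library, 11 fibroblast markers to between 9939 and 13779, and 7 adipocyte markers, with Fabp4 highest, to between 3896 and 9672. No marker gene in the table was at 0 in any library, Adgre1 was not found in the table, and the libraries are called glands below. In such bulk RNA, fewer cells of a type and less RNA per cell cannot be told apart. Total counts per library lay between 53875123 and 71595924. As a check of the labels, Adamts18 had 252 reads (WT) against 144 (Adamts18-/-) in mouse 1, 608 against 295 in mouse 2 and 383 against 202 in mouse 3, fewer in each mutant gland (log2 fold change -0.83, standard error 0.19, unadjusted p = 0.00922, edgeR, the 2 glands of a mouse paired). Counts over a whole gene take reads from outside the deleted exons and from the host stroma. Mouse, donor and experiment cannot be told apart, and the p-values below measure the spread between these 3 pairs.

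RefSeq promoter sequence (build GRCm38.p6) was matched for 7 of the 10 genes. A stretch of 100 bases before an annotated start is shown for the 3 genes that differed most between the glands of mouse 3 in the values given below among these 7, Postn in 1 direction and Fbln1 and Fbln2 in the other. Capitals mark TATAAA, the TATA box, in Postn and the reverse strand of GGGCGG, a GC box bound by Sp-family factors, in both fibulins. The windows are chr3:54361007-54361106 for Postn, chr15:85205908-85206007 for Fbln1 and chr6:91212664-91212763 for Fbln2, all on the plus strand.
Postn: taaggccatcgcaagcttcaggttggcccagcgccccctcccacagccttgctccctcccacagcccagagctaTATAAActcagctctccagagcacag
Fbln1: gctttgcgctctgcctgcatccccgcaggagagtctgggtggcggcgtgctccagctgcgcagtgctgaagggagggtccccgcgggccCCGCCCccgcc
Fbln2: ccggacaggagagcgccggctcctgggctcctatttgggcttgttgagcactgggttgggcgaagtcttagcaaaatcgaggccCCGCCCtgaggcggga
The stretches of Postn and Fbln1 lie before the second of 2 annotated starts of each gene, and before the first start of each none of the 3 motifs searched was found. The TATA box of Postn began 26 bases before this start, and the GC boxes began 11 bases (Fbln1) and 16 bases (Fbln2) before theirs. On both strands of the 250 bases before a start, 12.4% of the 32851 starts in the RefSeq table held TATAAA and 32.7% held GGGCGG. Among the other matched genes, Tnc held both motifs in these 250 bases, with TATAAA beginning 126 and 205 bases before its 2 starts. Fbn1 held GGGCGG, and Fbln5 held it before the first of its 2 starts but not before the second. Fbn1 was higher in the mutant gland of mouse 3 and Fbln1 and Fbln2 lower, so GGGCGG did not go with 1 direction. The core recognised by Tead factors (GGAATG) was in 12.6% of all starts and before none of the starts of the 7 matched genes, which says only that these letters are not in these windows.

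Fibronectin and periostin transcripts were by far the most abundant of the 10 genes. Scaled to the length of annotated exons (RPKM, CPM per kilobase of exon), Fn1 stood at 244 ± 92.4 (SD over the 6 libraries), and Postn at 133 ± 83.5. Next came the microfibril gene Fbn1 at 34.5 ± 10.4 RPKM, Fbln2 at 33.9 ± 9.05 and Fbln1 at 23.2 ± 8.54. Fbln5, which is required for elastic fibre assembly, followed at 11.1 ± 2.71 RPKM, ahead of elastin itself (Eln) at 7.66 ± 1.21. Emilin1, a glycoprotein at the boundary of elastin and microfibrils, stood at 5.52 ± 0.473 RPKM, Tnc at 2.99 ± 0.587, and the developmental fibrillin Fbn2 was last at 1.62 ± 1.18. The order held within each of the 6 libraries with 1 exception: Fbn1 and Fbln2 were not separated, Fbn1 being above Fbln2 in 2 of the 6. By their ranges over libraries, only Postn and Fbn1, and Emilin1 and Tnc, were neighbours without overlap. Reads of Fn1 alone made up 0.174% to 0.479% of a library, and its mean log2 CPM was above that of 99.9% of the genes tested.

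**Figure D1:**
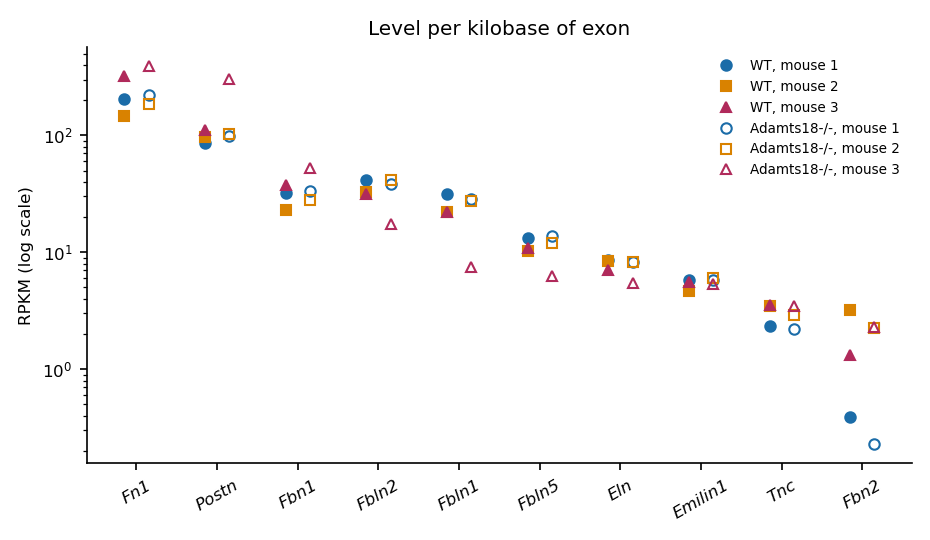
Level of each gene in RPKM (CPM per kilobase of annotated exon, log axis), with 1 point per library, filled for WT and open for Adamts18-/- glands, and the marker shape giving the mouse. Fn1 and Postn lie above the other 8 genes in every library, and Fbn2 has the widest spread, from 0.227 to 3.22 RPKM.

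None of the 10 genes differed between the genotypes by the thresholds of the study. At a fold change under 0.8 with an unadjusted p under 0.05, 0 of 10 genes were lower in Adamts18-/- glands, where 1.84% of all tested genes were. Above the reciprocal of that fold, 0 of 10 were higher, where 1.17% of all tested genes were. None of the 10 (0) had an unadjusted p under 0.05, where 670 of the 17345 tested genes did, a small share. Every gene of the set had an adjusted p of 0.987 (quasi-likelihood test of edgeR, Benjamini-Hochberg method). Among all tested genes, 0 (0%) had an adjusted p under 0.05 by edgeR, while DESeq2 gave 71. The edgeR count was 268 without mouse 3, 353 with scaling to epithelial markers and 266 with scaling to fibroblast markers, with 0 of the 10 genes in any of these counts. The WT and Adamts18-/- glands overlapped in CPM for every one of the 10 genes, where 2.31% of all genes had each Adamts18-/- gland above each WT gland and 2.63% the reverse. The median log2 fold change of the 10 genes was -0.13, beside 0.00065 over all genes, and without mouse 3 it was 0.13.

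Within the pairs, 3 genes (Fn1, Fbn1 and Postn) were higher in the Adamts18-/- gland of all 3 mice, a pattern shown by 10.8% of all tested genes, and 2 genes (Eln and Tnc) were lower in all 3 mice, as were 12.7% of all genes. The remaining 5 differed in direction between mice. Most of the spread lay between mice, which differ in host, donor and experiment. In a split of the variance of log2 CPM, the mouse took a median of 71.4% over the 10 genes and the genotype 8.40%. These were near the values for all tested genes of 67.3% and 6.0%. The rest, against which a paired difference is read, was 17.3% for the 10 genes and 19.1% for all.

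**Figure D2:**
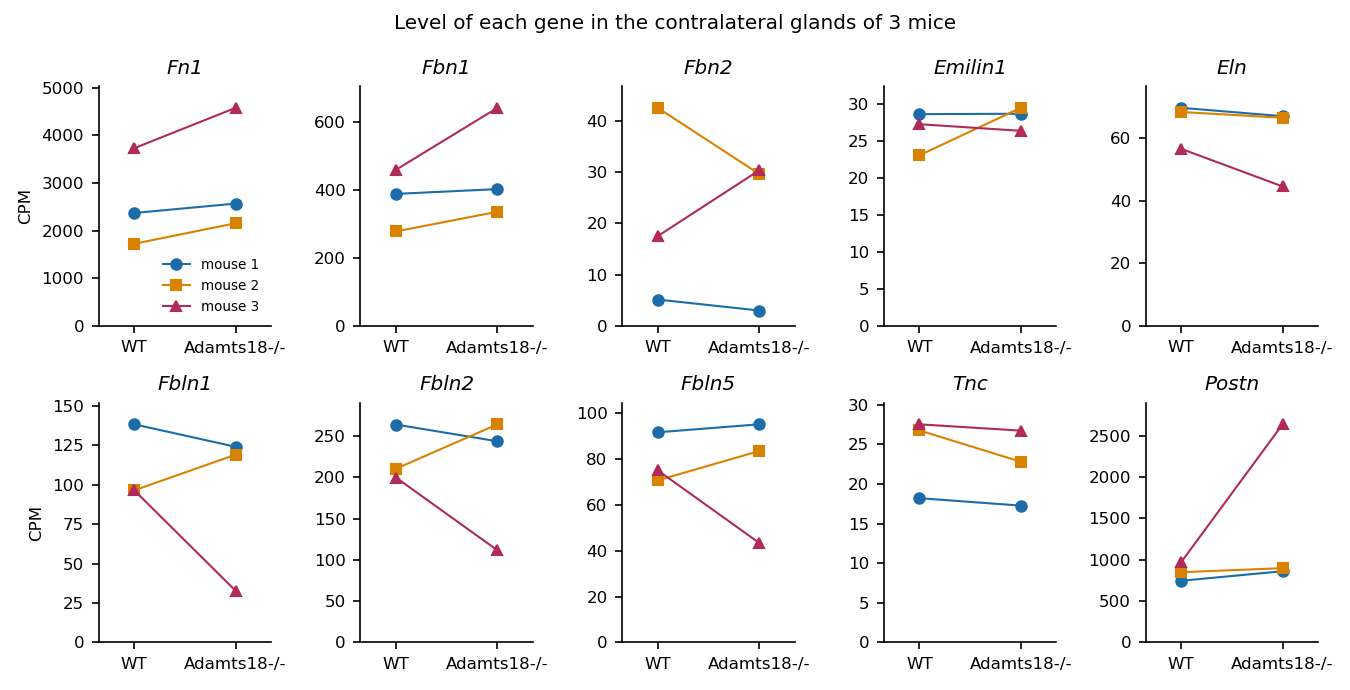
CPM of each of the 10 genes in the WT and Adamts18-/- glands of each mouse, with a line joining the contralateral glands of 1 mouse and each axis starting at 0. The 3 lines of Fn1, Fbn1 and Postn slope upwards, and the line of mouse 3 runs down steeply for Fbln1 from 96.5 to 32.7 CPM.

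Fn1, the fibronectin gene, was at 2371 CPM (WT) against 2569 CPM (Adamts18-/-) in mouse 1, 1724 against 2157 CPM in mouse 2 and 3732 against 4580 CPM in mouse 3. Each mutant graft was thus above its own contralateral gland, but both glands of mouse 3 lay above all glands of mice 1 and 2, whichever epithelium they carried. The fitted fold change of Fn1 was 1.18 (95% interval 0.931 to 1.51, log2 fold change 0.24, standard error 0.13, unadjusted p = 0.128, edgeR). Of the variance of log2 CPM of Fn1, 92.5% lay between mice, 6.59% between genotypes and 0.93% in the rest. DESeq2 gave Fn1 an unadjusted p of 0.0147, with a fold change under the study's upper threshold and an adjusted p of 0.707 (the adjusted p of Fn1 lay between 0.348 and 1.0 over the alternatives).

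Fbn1, the main structural fibrillin of adult microfibrils, was at 389, 278 and 460 CPM in WT glands and 403, 336 and 642 CPM in the contralateral Adamts18-/- glands of mice 1, 2 and 3. It followed Fn1 closely, and the ratio of Fn1 to Fbn1 CPM stayed between 6.10 and 8.12 in all 6 libraries. The root mean square difference between their centred log2 CPM values over the 6 libraries was 0.144, the smallest of Fn1 with any of the other genes in the set. The fold change of Fbn1 was 1.21 (log2 fold change 0.27, 95% interval -0.044 to 0.58, unadjusted p = 0.0777, edgeR), the smallest p among the 10 genes by that test. DESeq2 gave Fbn1 an unadjusted p of 0.0350, with a fold change under the study's upper threshold and an adjusted p of 0.99989.

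Fbn2, the fibrillin best known from developing tissue, went its own way. Its reads numbered 359, 2607 and 985 in WT glands and 157, 1796 and 1864 in Adamts18-/- glands of mice 1, 2 and 3, or 5.15, 42.5 and 17.5 CPM against 3.00, 29.6 and 30.3 CPM. Both glands of mouse 1 were far below those of mice 2 and 3, and the highest library stood 14.2-fold above the lowest, the widest range of the set. The Adamts18-/- gland was at 0.586 and 0.697 of the WT level of Fbn2 in mice 1 and 2 but at 1.73 in mouse 3. Over all mice the log2 fold change of Fbn2 was -0.15 (standard error 0.33, unadjusted p = 0.665, edgeR). Without mouse 3 it was -0.62 (standard error 0.11, unadjusted p = 0.00249, adjusted p = 0.122 by edgeR), the only gene of the set past the thresholds when a mouse was left out. Without mouse 3, 1.65% of all tested genes were lower at the thresholds.

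Elastin mRNA varied little. Eln was at 69.6 CPM (WT) against 66.9 CPM (Adamts18-/-) in mouse 1, 68.3 against 66.4 CPM in mouse 2 and 56.5 against 44.5 CPM in mouse 3, lower in each pair, and lowest in the mutant gland of mouse 3. Its fold change was 0.903 (95% interval 0.767 to 1.06, unadjusted p = 0.169, edgeR). Emilin1 was at 28.6 CPM (WT) against 28.7 CPM (Adamts18-/-) in mouse 1 and 27.3 against 26.4 CPM in mouse 3. It had the narrowest range of the set, from 23.1 CPM in the WT gland of mouse 2 to 29.5 CPM in the contralateral Adamts18-/- gland, a 1.28-fold span over all libraries. Its fold change was 1.07 (95% interval 0.880 to 1.31). Of the variance of log2 CPM of Emilin1, 23.4% lay between mice, the lowest share of the set. Its interval reached past the study's upper threshold but not past the lower one of 0.8.

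The 3 fibulins had like patterns over the libraries, with the widest differences in mouse 3. Fbln1, which binds fibronectin and basement membrane proteins, was at 138, 96.4 and 96.5 CPM in WT glands and 124, 119 and 32.7 CPM in Adamts18-/- glands of mice 1, 2 and 3. Fbln2, a partner of fibrillin, fibronectin and laminin, was at 264, 211 and 200 CPM against 244, 264 and 112 CPM. Fbln5 was at 91.7, 70.7 and 75.2 CPM against 95.2, 83.6 and 43.5 CPM. For each fibulin the mutant gland of mouse 3 held the lowest value of the 6 libraries, and the other 5 libraries lay between 96.4 and 138 CPM for Fbln1, 200 and 264 CPM for Fbln2 and 70.7 and 95.2 CPM for Fbln5.

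In mouse 3 the Adamts18-/- gland was at 0.339 of the WT level for Fbln1, 0.559 for Fbln2 and 0.578 for Fbln5. In mice 1 and 2 the same ratios were 0.897 and 1.24 for Fbln1, 0.923 and 1.26 for Fbln2 and 1.04 and 1.18 for Fbln5. The difference of Fbln1 in mouse 3 was larger in size than that of 98.0% of the genes tested in the same pair. Over all mice the fold change was 0.728 for Fbln1 (95% interval 0.364 to 1.46, unadjusted p = 0.288), 0.866 for Fbln2 (unadjusted p = 0.425) and 0.894 for Fbln5 (unadjusted p = 0.492, edgeR for all 3). Without mouse 3 the log2 fold changes of Fbln1, Fbln2 and Fbln5 were 0.082, 0.11 and 0.15, positive for each. Fbln2 and Fbln5 were the closest pair of the whole set, with a root mean square log2 difference of 0.114 over the 6 libraries.

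The matricellular genes Tnc and Postn had unlike patterns. Tnc, which encodes tenascin-C, an anti-adhesive protein of remodelling stroma, was at 18.2, 26.8 and 27.5 CPM in WT glands and 17.3, 22.8 and 26.7 CPM in Adamts18-/- glands. Mouse 1 was lower than the others in both glands, and the fold change was 0.922 (95% interval 0.793 to 1.07, unadjusted p = 0.223, edgeR). Postn, which encodes periostin, a ligand of integrins that also binds fibronectin and collagen, was at 745, 848 and 969 CPM in WT glands and 860, 898 and 2636 CPM in Adamts18-/- glands of mice 1, 2 and 3. The mutant gland of mouse 3 thus stood alone, 2.72-fold above its contralateral gland, against 1.16-fold and 1.06-fold in mice 1 and 2. That difference exceeded in size those of 97.6% of all genes in the pair. The log2 fold change of Postn was 0.57 (standard error 0.31, unadjusted p = 0.127, edgeR), the largest of the 10 genes in size, and 0.15 without mouse 3. By DESeq2 it passed the thresholds of the study, with an unadjusted p of 0.0283 but an adjusted p of 0.907, where 1.96% of all genes were higher by that tool. Over all alternatives the adjusted p of Postn lay between 0.185 and 1.0.

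**Figure D3:**
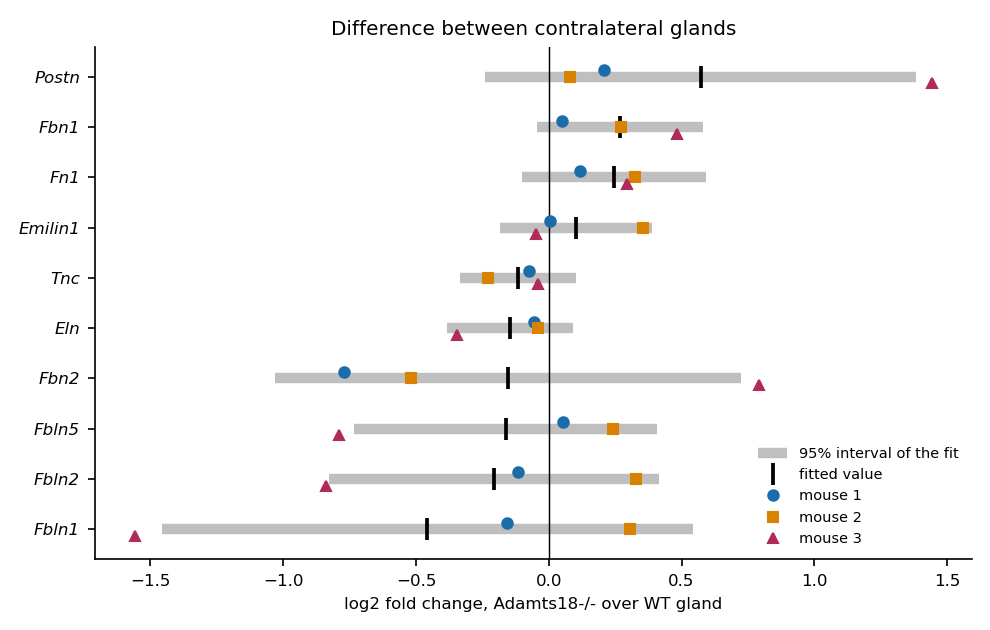
Log2 fold change of each gene between the Adamts18-/- and the WT gland, with 1 marker per mouse, a black tick for the edgeR fit and a grey bar for its 95% interval. Every grey bar crosses 0, and the marker of mouse 3 lies outside the bar for Postn, Fbn2, Fbln1, Fbln2 and Fbln5.

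In the Adamts18-/- gland of mouse 3, several ratios between these transcripts lay outside the range of the other 5 libraries. Its ratio of Postn to Fbln1 CPM was 80.6, and the others lay between 5.39 and 10.05. Its ratio of Fn1 to Fbln2 was 41.0, with 18.7 in the WT gland of the same mouse and 8.16 to 10.5 in mice 1 and 2. Against Col1a1, which encodes a chain of collagen I and served as a fibroblast marker, Postn was at 1.84 there and at 0.548 to 0.798 elsewhere, and Fbln1 at 0.0228 there and at 0.0794 to 0.102 elsewhere. Col1a1 itself was 1.18 times as high in that gland as in the WT gland of mouse 3. Of the 11 fibroblast markers, 7 were lower in the same gland. The ratios thus hold for Col1a1 alone, and ratios to the other markers were not computed. The median size of the within-pair log2 difference over the 10 genes was 0.64 in mouse 3, 0.29 in mouse 2 and 0.096 in mouse 1, beside 0.23, 0.15 and 0.11 over all tested genes. Whether the pair of mouse 3 differs from the others was not tested, since it is a single pair.

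Markers of other cells moved in the same libraries. The 6 T and B cell markers, with Cd79a highest, summed to 627 CPM in the Adamts18-/- gland of mouse 3, 156 in its WT gland and 16.8 to 29.2 in the other 4 libraries. The 11 fibroblast markers, with Col3a1 highest, had a sum that was 1.02, 1.34 and 1.09 times as high in the Adamts18-/- gland of mice 1, 2 and 3. Within that list the direction was mixed in mouse 3, where 7 of 11 markers were lower, and 0 of 11 passed the thresholds. The 7 adipocyte markers summed to 3896 and 5032 CPM in the glands of mouse 3 and to 8334 to 9672 CPM in those of mice 1 and 2, and 0 of 7 passed. The 6 skeletal muscle markers, with Myh4 highest, summed to 9767 and 9580 CPM in the Adamts18-/- glands of mice 1 and 2 and to 257 and 753 CPM in their WT glands, but to 1661 and 2467 CPM in the mutant and WT glands of mouse 3. At the thresholds 0 of 6 T and B cell and 0 of 6 muscle markers passed. Among all tested genes, 1.84% were lower and 1.17% higher at these thresholds. The part of these cells in the differences of the 10 genes was not tested.

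Epithelial markers were lower in the Adamts18-/- glands of mice 2 and 3, with 20 of 20 below the WT gland in each. In mouse 1 only 7 of 20 were below it, with a median log2 difference of 0.048. Of 20 epithelial markers, 7 passed the thresholds and all 7 were lower, where 1.84% of all tested genes were. Krt19 was among these 7 at the highest level. The sum of the list was 0.972, 0.590 and 0.687 of the WT gland in mice 1, 2 and 3. Of 9 myoepithelial markers 8 were lower at the thresholds, with Acta2 highest, and of 8 luminal markers 5 were, beside the same share of all genes. All 9 and all 8 had a negative log2 fold change. The epithelial list shares 2 genes with the myoepithelial list (Krt5 and Krt14) and 3 with the luminal list (Krt8, Krt18 and Krt19). Of the remaining lists, 0 of 6 endothelial markers (Pecam1 highest), 0 of 4 tested macrophage markers (Csf1r highest) and 1 of 5 pericyte markers passed. That gene was Des (desmin), also a muscle gene, which rose with a log2 fold change of 1.66, where 1.17% of all tested genes were higher. Rgs5, the most abundant pericyte marker, did not pass (log2 fold change -0.068).

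**Figure D4:**
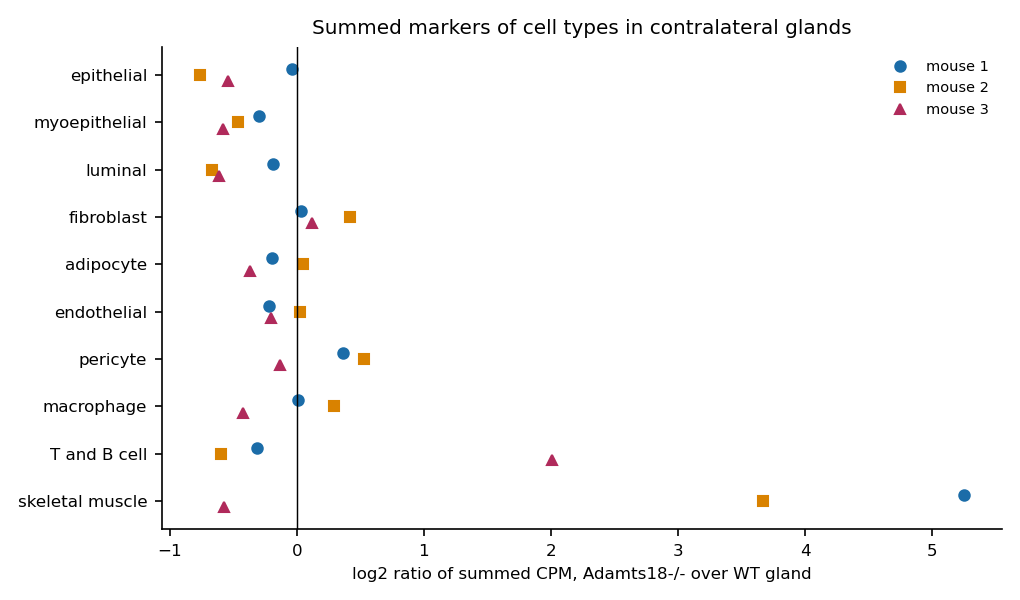
Log2 ratio of the summed CPM of each marker list between the Adamts18-/- and the WT gland, with 1 marker shape per mouse. Skeletal muscle markers lie far to the right in mice 1 and 2, T and B cell markers in mouse 3, and the 3 epithelial lists lie left of 0 in all mice.

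Scaled to the 20 epithelial markers, which shifted the median over all genes upwards by 0.45 on the log2 scale, Postn passed the thresholds (log2 fold change 1.02, unadjusted p = 0.00723, adjusted p = 0.185 by edgeR). That is 1 of the 10 genes, on a scale where 11.6% of all tested genes were higher at the thresholds. On that scale 9 of the 10 genes had a positive log2 fold change, and Fbln1 alone a negative one. Scaled to the 11 fibroblast markers, an alternative added after the data were seen that lowered the median of all genes by 0.19, Postn did not pass and the 3 fibulins did. Their log2 fold changes were then -0.65 for Fbln1 (unadjusted p = 0.00212), -0.40 for Fbln2 (unadjusted p = 0.0292) and -0.35 for Fbln5 (unadjusted p = 0.0485), with adjusted p between 0.106 and 0.532 by edgeR, where 7.41% of all tested genes were lower at the thresholds. Fn1 and Fbn1 were positive on both scales, at 0.69 and 0.72 against the epithelial markers and at 0.054 and 0.078 against the fibroblast markers. The fibroblast scale is the summed count of its list, in which Col3a1 was highest. In the mutant gland of mouse 3 Col3a1 was 1.75 times as high as in the WT gland, whereas 7 of the 11 markers were lower. The calls of the fibulins thus hold against that sum, and single markers were not used for scaling. The standard error of Fbln1 was 0.20 on that scale and 0.38 in the main fit.

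The partners of these proteins were followed in 3 further lists. Over all tested genes, 1.84% were lower and 1.17% higher at the thresholds. Of 25 elastic fibre and microfibril partners, which include latent TGF-beta binding proteins, microfibril-associated proteins and lysyl oxidases, 1 fell and 0 rose at the thresholds, with a median log2 fold change of -0.099 beside 0.00065 over all genes. The gene that fell was Ltbp2, which competes for fibrillin and binds Fbln5, at 73.9, 149 and 99.1 CPM in WT glands and 68.4, 77.8 and 65.7 CPM in Adamts18-/- glands (log2 fold change -0.55, standard error 0.17, unadjusted p = 0.0251, adjusted p = 0.987 by edgeR). It was lower in 3 of 3 pairs. Ltbp4, the most abundant of the list, was at 464, 400 and 290 CPM against 365, 433 and 167 CPM and did not pass (unadjusted p = 0.140, edgeR).

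Mouse 3 stood out among the partners as it did among the fibulins. In that pair 20 of the 25 partners were lower in the Adamts18-/- gland, with a median log2 difference of -0.45, beside -0.0052 over all tested genes. In mice 1 and 2, 18 and 9 were lower, with medians of -0.068 and 0.13. Lower levels in that gland of mouse 3 were not particular to the partners. There 7 of 7 adipocyte, 4 of 4 macrophage, 5 of 6 endothelial, 20 of 20 epithelial and 7 of 11 fibroblast markers were lower, but 0 of 6 T and B cell markers. Efemp1, a fibulin-family gene named here after its values were seen, was at 338 CPM in the WT gland and 199 CPM in the mutant gland of mouse 3, against 382 and 444 CPM in mouse 1 and 320 and 378 CPM in mouse 2. Loxl2, a lysyl oxidase named on the same terms, went the other way in mouse 3, from 110 to 197 CPM.

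Of 23 other matricellular and adhesive glycoproteins, 22 passed the low-count filter (Tnn did not). At the thresholds 1 fell and 1 rose, where 1.84% of all tested genes were lower and 1.17% higher. The median log2 fold change was -0.090. Ctgf, which encodes connective tissue growth factor, fell by 0.46 on the log2 scale (standard error 0.088, unadjusted p = 0.00420, adjusted p = 0.987 by edgeR, lower in 3 of 3 pairs) and was at 151, 266 and 107 CPM in WT and 119, 202 and 69.0 CPM in Adamts18-/- glands. Tnr, which encodes tenascin-R, rose (log2 fold change 1.30), but on only 7, 20 and 9 reads in WT glands and 10, 37 and 41 reads in Adamts18-/- glands (unadjusted p = 0.0166, edgeR). Sparc, the most abundant of the list at 1514 to 2168 CPM, did not pass (log2 fold change 0.14, unadjusted p = 0.370). In mouse 3, 16 of the 22 were lower in the Adamts18-/- gland, with a median log2 difference of -0.35. In mice 1 and 2, 12 and 4 were lower, with medians of -0.013 and 0.29. Tnxb and Fndc1, named after their values were seen, followed the fibulins in mouse 3, from 627 to 257 CPM and from 570 to 210 CPM.

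Of 11 receptor genes, which encode integrin subunits that bind fibronectin or tenascin and the co-receptor Sdc4, 0 passed in either direction, with a median log2 fold change of -0.12. In mouse 3, 9 of the 11 were lower in the Adamts18-/- gland, with a median log2 difference of -0.39, beside medians of -0.038 and -0.058 in mice 1 and 2. The median over all tested genes in the pair of mouse 3 was -0.0052, and most marker lists of other cells were also lower in that gland. Itgb1, which pairs with several of the alpha subunits in the list, was at 490, 505 and 442 CPM in WT and 477, 505 and 410 CPM in Adamts18-/- glands, a log2 fold change of -0.048 (unadjusted p = 0.625, edgeR).

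The 5 genes outside the set whose centred log2 CPM lay closest to that of Fn1 were Cenpw, Tfec, Arid3a, Aif1l and Duox1, with root mean square differences of 0.0599, 0.0648, 0.0742, 0.0809 and 0.0914 over 6 libraries, beside a median of 0.519 for all genes. Their likeness to Fn1 over the libraries is what they were chosen for and is no finding. Cenpw and Tfec were low, at means of 1.06 and 1.65 CPM.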

How the data were processed

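RNA from 6 glands (3 WT, 3 Adamts18-/-) was sequenced with single-end reads of 85 bp. The deposited table holds the authors' raw read counts by gene symbol, whole numbers with no normalization, 1 column per gland. The submitters' processing notes name TopHat2 2.0.11, featureCounts 1.6.2 and build mm9, and the annotation and strand setting are not given in the sources used here. Columns were matched to samples by genotype and mouse number in the labels, and 0 columns belonged to other samples.

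Genes kept by filterByExpr (17345) were tested by the quasi-likelihood method of edgeR 4.0.16 under R 4.3.3, with TMM factors and Benjamini-Hochberg adjustment. The mouse was a block because contralateral glands share a host. Their deviations from the group means correlated across genes at 0.512, 0.505 and 0.639 in mice 1, 2 and 3. The libraries were no duplicates (chi-square per degree of freedom of at least 42.1). Differences within a mouse are of log2 CPM with a prior count of 2, and RPKM used exon lengths of GENCODE M21. Total counts of 53875123 to 71595924 put 3 counts at no more than 0.0574 CPM, for counting error only. Alternatives used DESeq2 1.42.0, limma-voom (limma 3.58.1), no block, other scalings and filters, and each mouse left out. The script was checked on simulated counts.

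The 10 genes and all lists were chosen with earlier results of these data known. Named were the 10 genes, Adamts18, genes at the thresholds of the 3 partner lists, the most abundant gene of each list, and the 5 genes nearest to Fn1 in pattern. Efemp1, Loxl2, Tnxb, Fndc1, Des and shared list members were named after their values were seen. Col1a1, used for ratios, is also outside the naming rule, since Col3a1 was the highest fibroblast marker. GRCm38 promoter coordinates come from RefSeq, not from the mm9 processing.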

Additional observations from a re-analysis of the deposited data

How the results depend on the processing

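Of 130 comparisons of a gene's main value with an alternative (10 genes, 13 alternatives), 112 kept direction and side of the thresholds, 6 came to pass them and 12 changed sign. Scaled to the epithelial markers, 1 gene of the set was higher (Postn, 1.02), the median of the set was 0.32, Fbn2, Eln, Fbln2, Fbln5 and Tnc changed sign to 0.30, 0.30, 0.23, 0.28 and 0.33, and over all genes 27 were lower and 2020 higher. Scaled to the fibroblast markers, 3 genes of the set were lower, the median was -0.32, Emilin1 changed sign to -0.088, and over all genes 1285 were lower and 321 higher. These scalings shift all genes by construction (median 0.45 and -0.19). DESeq2 called 1 gene of the set higher and 340 of all genes, limma-voom 345, and no filter on low counts 352. Without the mouse as a block 125 of all genes were lower, and the block changed no call among the 10 genes. With 1 mouse left out, 0 to 1 genes of the set were lower and 0 higher, their median lay between -0.041 and 0.13, and 214 to 481 of all genes were lower and 182 to 581 higher. Values over these leave-outs ran from -0.62 to 0.13 for Fbn2, -0.86 to 0.082 for Fbln1, -0.48 to 0.11 for Fbln2, -0.37 to 0.15 for Fbln5 and -0.023 to 0.19 for Emilin1. Mouse 3 decided the sign of the fibulins. The cause was not tested.

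Main counts over all genes were 319 lower and 203 higher, and the adjusted p of the 10 genes lay between 0.106 and 1.0 over all alternatives. With 3 pairs, the 95% interval of Fbln1 spans 0.364 to 1.46 fold, so that changes within it cannot be told from none. The lowest count of the 10 genes in any library was 157 reads, for Fbn2.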
